A study of Mus musculus with 18 samples.

Results

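Small nucleolar RNAs (snoRNAs) were followed in cultured mouse embryonic fibroblasts after a pulse of dexamethasone, a synthetic glucocorticoid that sets the clocks of cultured cells to a common phase. The 51 genes described here were chosen by symbol: each is called Snord or Snora with a number and at most 1 letter in the platform annotation, out of 19938 genes with a probe set of their own. The class was chosen with earlier results of these arrays known, and the mean signal over the 18 arrays selected the probe set for the 5 genes with 2 probe sets, so the calls below describe these arrays and are not independent support. Of the 51 genes, 31 were of the C/D class (Snord) and 20 of the H/ACA class (Snora). All arrays came from wild-type fibroblasts of the C57BL/6 strain, cultured from embryos at embryonic day 13, that had been exposed to 100 nM dexamethasone for 2 h. RNA was collected at 22, 26, 30, 34, 40 and 46 h, and the labels name 3 biological replicates for every time, each on its own array. Nothing labels an untreated culture here, so each later time was compared with 22 h, and the p-values measure the spread between 3 cultures or RNA samples of lines that the labels trace to a pair of mice.

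C/D and H/ACA RNAs make up the class, and both work in the nucleolus on ribosomal RNA (rRNA). C/D snoRNAs pair with rRNA and guide the methyltransferase fibrillarin to a ribose, whereas H/ACA snoRNAs guide the pseudouridine synthase dyskerin to a uridine. A few members of both families are needed for cleavage of the rRNA precursor rather than for its modification. In mammals most snoRNAs lie within introns of other genes, often genes of ribosomal proteins or translation factors, and are released from the spliced intron.

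All 51 genes were found in RefSeq (assembly GRCm38.p6), and 47 of them lay within the span of exactly 1 other gene, 3 within several, and 1 (Snord118) within none. Ribosomal protein genes held 21 of the 47, in 16 genes. Other protein-coding genes held 16, in 14 genes, and long noncoding RNA genes held 10, in 7 genes. The promoters of 4 of these containing genes are shown because their snoRNAs carry the results below: Snhg12 holds Snora16a and Snora44, Snhg3 holds Snora73a and Snora73b, Rpl23 holds Snora21, and Ncl holds both Snora75 and Snord82, which moved differently. Each sequence is from RefSeq (GRCm38.p6), read 5′ to 3′ on the strand of the gene, from 250 bases before to 50 bases after its annotated start. Capitals mark an unbroken run of at least 6 pyrimidines, on the gene's strand, that lies within 5 bases of the start (Snhg12), the letters TATAAA (Snhg3) or the letters CACGTG (Rpl23), both of these looked for on both strands. The Ncl window held none of the 3. In the Snhg3 window TATAAA lies after the annotated start, not before it.
Snhg12 (chr4:132308428-132308727, plus strand): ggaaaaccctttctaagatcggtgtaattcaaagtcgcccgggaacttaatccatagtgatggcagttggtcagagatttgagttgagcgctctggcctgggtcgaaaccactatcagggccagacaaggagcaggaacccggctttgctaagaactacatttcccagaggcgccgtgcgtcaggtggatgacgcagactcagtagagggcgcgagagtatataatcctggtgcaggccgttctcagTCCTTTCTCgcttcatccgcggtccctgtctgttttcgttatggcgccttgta
Snhg3 (chr4:132353637-132353936, minus strand): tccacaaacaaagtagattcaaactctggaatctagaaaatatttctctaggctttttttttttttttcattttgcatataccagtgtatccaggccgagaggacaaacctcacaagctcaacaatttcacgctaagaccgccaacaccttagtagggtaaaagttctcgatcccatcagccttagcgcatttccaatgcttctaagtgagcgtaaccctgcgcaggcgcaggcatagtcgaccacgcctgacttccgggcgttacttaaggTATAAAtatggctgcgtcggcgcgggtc
Rpl23 (chr11:97782390-97782689, minus strand): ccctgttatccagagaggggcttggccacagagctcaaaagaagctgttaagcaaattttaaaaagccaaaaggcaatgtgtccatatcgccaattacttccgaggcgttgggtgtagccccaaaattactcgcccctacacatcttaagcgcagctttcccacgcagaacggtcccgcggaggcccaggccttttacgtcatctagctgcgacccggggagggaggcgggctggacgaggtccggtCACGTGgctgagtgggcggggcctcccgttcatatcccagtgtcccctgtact
Ncl (chr1:86359406-86359705, minus strand): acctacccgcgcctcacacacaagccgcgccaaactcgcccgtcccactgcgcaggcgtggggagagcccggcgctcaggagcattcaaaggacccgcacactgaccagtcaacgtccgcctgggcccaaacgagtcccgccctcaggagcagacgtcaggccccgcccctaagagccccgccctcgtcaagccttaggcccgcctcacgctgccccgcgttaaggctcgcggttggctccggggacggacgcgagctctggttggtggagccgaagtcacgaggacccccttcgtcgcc

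Such a pyrimidine run at the start, known from genes of the translation machinery, was present in 14 of 30 promoters of containing genes (46.7%), against 21.0% of all 32851 promoters. CACGTG, the letters bound by clock and Myc proteins among others, was present in 6 of 30, against 7.15% of all promoters. TATAAA, anywhere in the window, was present in 8 of 30 (26.7%), against 13.6% of all promoters. These are matches of letters, given as a description of where the snoRNAs reside. The 30 promoters belong to 29 of the 37 containing genes.

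The arrays were alike in brightness, with a median intensity of 196 to 210. Fibroblast markers such as collagens and vimentin had a median signal of 12.7 on the log2(intensity + 16) scale over 10 genes, while the medians of the macrophage, endothelial, epithelial, skeletal muscle, neural and erythroid lists lay between 6.55 and 8.18, beside 8.07 for all genes. The lowest of the 10 fibroblast markers had a signal of 7.31. Of these 10, 5 were higher at 34 h and 6 at 46 h than at 22 h, beside 5.34% and 11.5% of all genes. Their median change was 0.21 and 0.35. Lum, lumican, changed by 1.29 ± 0.11 and Col3a1 by 0.66 ± 0.08 at 46 h. At that time Vim and Thy1 stood at 0.953 and 0.985 of their 22 h level. Dcn and Fn1 changed by 0.02 and 0.08, and none of these 4 genes was called. The part of these changes in the snoRNA results was not tested. Signals below are on that log2 scale after quantile normalisation, changes are differences on it, and calls are limma tests adjusted by Benjamini-Hochberg over all 19938 genes, with a threshold of 0.05. The arrays give RNA relative to the total of a bulk culture, so fewer cells of a type and less RNA per cell cannot be told apart, and a probe set cannot tell a mature snoRNA from the unspliced intron that holds it. Mature snoRNAs carry no poly(A) tail, and the labels speak of poly(A)+ RNA while describing random priming of total RNA, so how much of a signal comes from the mature RNA is unknown. Member signals ran from 6.01 (Snord38a) to 12.4 (Snord57); intensities of different probe sets do not rank abundance.

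snoRNA genes fell late in the time course. Over the 6 times, 27 of the 51 genes differed by the moderated F test, where 19.8% of all genes did. The 27 were 15 of the 20 Snora genes and 12 of the 31 Snord genes. None was called at 26 h (0.958% of all genes were higher and 1.23% lower by limma) or at 30 h (2.47% higher and 2.23% lower), although with array weights 3 were called at 26 h and 18 at 30 h, and without single arrays up to 2 at 30 h. At an unadjusted p under 0.05, 1 was lower at 26 h (5.62% of all genes), and 9 were lower and 1 higher at 30 h (6.96% and 11.8% of all genes). At 34 h, 25 genes were lower than at 22 h, beside 4.1% of all genes. The median change was -0.52 for Snora and -0.25 for Snord genes, against 0.04 for all genes. At 40 h, 20 were lower (9.15% of all genes), and at 46 h, 26 were lower (9.73% of all genes). No snoRNA gene was called higher at 34, 40 or 46 h, where 5.34%, 12.3% and 11.5% of all genes were, and at an unadjusted p under 0.05 there was 1, at 40 h, where 20.9% of all genes were. With array weights 1, 3 and 1 were called higher at 34, 40 and 46 h. Array weights also raised the F test calls over all genes, from 3957 to 10765. The shares of all genes given here are those without weights, so the weighted counts cannot be read against them.

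The arrays showed this one by one. The median Snora gene, taken as its difference from the 22 h mean, stood at -0.46, -0.52 and -0.45 on the 3 arrays of 34 h, against 0.12, -0.06 and -0.08 on those of 22 h. At 30 h it still stood at 0.08, -0.03 and -0.03, and no array of 34 h came near that. The median Snord gene stood at -0.16, -0.28 and -0.31 on the arrays of 34 h, against 0.02, 0.003 and -0.06 at 22 h. The Snord median had already spread at 30 h, to 0.05, -0.19 and -0.14. Scaling the arrays by their median, or not at all, left the median changes at 34 h at -0.56 for Snora genes with both settings, and at -0.30 and -0.29 for Snord genes. The number of calls depended on single arrays. Without replicate 1 of 22 h, which was the highest of that time for Snora genes, 13 genes were lower at 34 h, 7 at 40 h and 14 at 46 h. Without replicate 3 of 22 h there were 16 at 34 h and 12 at 40 h, and without replicate 2 or 3 of 34 h there were 14 or 15 at 34 h. At 40 h, 11 were lower without replicate 1 or without replicate 3 of that time, and at 46 h, 17 without its replicate 3. Shares of all genes without these arrays are not given, so these counts cannot be read against the shares above. Values of single arrays are given in the order of the replicate numbers.

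**Figure D1:**
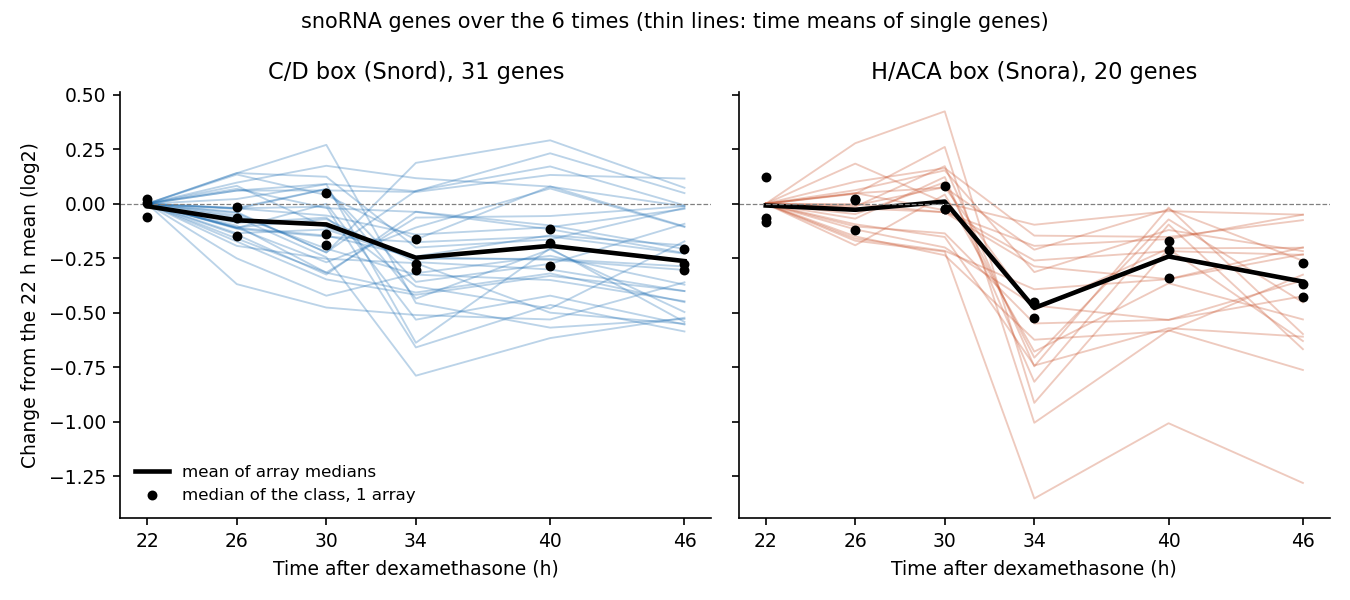
Difference from the 22 h mean (log2) against time after dexamethasone for 31 C/D genes (left) and 20 H/ACA genes (right); thin lines are single genes (means of 3 arrays), black points the class median on each array and the black line their mean. The H/ACA medians lie near 0 to 30 h and between -0.52 and -0.45 at 34 h, while the C/D medians lie between -0.31 and -0.16 at 34 h.

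The classes differed in when they were lowest. Of the 31 Snord genes, 17 were highest at 22 h and their lowest time was 46 h for 11 and 34 h for 9. Of the 20 Snora genes, 10 were highest at 30 h and 16 were lowest at 34 h. Over all 19938 genes, 3882 were highest at 22 h and 2376 at 30 h, while 1681 were lowest at 34 h and 3771 at 46 h. By class, 10 Snord and 15 Snora genes were lower at 34 h than at 22 h. At 40 h 11 Snord and 9 Snora genes were, and at 46 h 13 of each. Of all genes 4.1%, 9.15% and 9.73% were lower at 34, 40 and 46 h. All 20 Snora genes had a mean below that of 22 h at 34, 40 and 46 h. Of all 19938 genes, 7714, 7983 and 8343 did at these times. Of the Snord genes 26 did at 34 h, and the exceptions were Snord8, Snord55, Snord57, Snord82 and Snord104. The difference between the classes was not tested.

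The step into 34 h was sharp for H/ACA genes. This comparison, 34 h against 30 h, was chosen after the time means of the genes had been seen. On the whole array 15 genes were lower (0.0752%) and 3 higher (0.015%). Of the 15, 9 were snoRNA genes, with 8 Snora and 1 Snord: Snora44, Snora16a, Snora21, Snora73a, Snora73b, Snora74a, Snora3, Snora23 and Snord35b. The changes among them lay between -1.34 and -0.56. The other 6 were 2 small noncoding RNA genes (Rnu5g and Vaultrc5), the microRNA gene Mir496a, the clock-controlled genes Per3 and Tef, and Olfr1443. The 3 that were higher were Xbp1, Kdelr3 and Sdf2l1, of the endoplasmic reticulum stress response. The count of 9 fell to 2 without replicate 1 of 30 h or replicate 2 of 34 h, to 3 without replicate 2 of 30 h, and to 4 without replicate 1 of 34 h. Counts over all genes without these arrays are not given here.

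Snora21, which guides pseudouridylation of large-subunit rRNA, had the largest fall of the 51 genes at 34 and 46 h. Its signal was 8.18, 8.91 and 9.13 on the arrays of 34 h and 8.80, 8.99 and 8.63 on those of 46 h, against 10.14, 10.13 and 10.01 at 22 h. The arrays of 40 h read 9.12, 8.93 and 9.20. Each of these 9 arrays was below every array of 22, 26 and 30 h. The change was -1.35 ± 0.17 (SE, n = 3) at 34 h and -1.28 ± 0.17 at 46 h (limma adjusted p = 8.2e-05 and 3.2e-05), or 0.392 and 0.411 of the 22 h level. The gene has another probe set, which had a lower mean signal and fell less, by 0.68 at 34 h and by 0.94 at 46 h. That probe set had a change of -0.19 at 30 h and was lowest at 46 h, so its step from 30 to 34 h was smaller. Over 30 alternative settings the step of Snora21 lay between -1.33 and -0.50 and lost the call in 5. The 2 probe sets differed by up to 1.103 on an array. In the other 4 genes with 2 probe sets the pair differed by at most 0.06.

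Snora44 and Snora16a, both held by the long noncoding RNA gene Snhg12, had their highest means at 30 h and their lowest at 34 h. Snora44 had 8.04, 8.34 and 8.65 on the arrays of 34 h, against 10.13, 9.55 and 9.37 at 30 h and 9.39, 9.17 and 9.22 at 22 h, so its arrays of 34 h lay below all the earlier ones. Its change was -1.34 ± 0.17 from 30 h (adjusted p = 0.0062, limma) and -0.91 ± 0.17 from 22 h (adjusted p = 0.0019). Snora16a had 8.62, 8.61 and 9.41 at 34 h, against 10.38, 10.23 and 9.83 at 30 h and 9.92, 9.97 and 9.77 at 22 h. Its change from 22 h was -1.01 ± 0.18 at 34 h and -0.76 ± 0.18 at 46 h, with limma adjusted p-values of 0.0020 and 0.0064. At 40 h Snora44 stood between 8.95 and 9.20, which overlapped its arrays of 22 h (change -0.21, limma adjusted p = 0.39), while Snora16a stayed lower by that test (change -0.58, adjusted p = 0.032).

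Snora73a and Snora73b, the RNAs also known as U17, are needed for early cleavage of the small-subunit rRNA precursor and are held by Snhg3. Snora73a had 10.29, 10.91 and 11.15 at 34 h and 10.96, 10.94 and 10.89 at 46 h, against 11.83, 11.51 and 11.46 at 22 h. Both late times lay wholly below 22 h, but at 40 h the arrays read 11.60, 11.39 and 11.52 and overlapped it. The changes were -0.82 at 34 h, -0.10 at 40 h and -0.67 at 46 h (SE 0.15 each, limma adjusted p = 0.0023, 0.69 and 0.0044). Snora73b followed with -0.75, -0.02 and -0.60. The pair are near copies of equal length, and their probe sets may read each other's RNA. Snora74a, held by Snhg4, had the same shape, with changes of -0.71, -0.07 and -0.45.

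Other Snora genes stayed down at 40 h. Snora33, in the ribosomal protein gene Rps12, had 7.87, 8.04 and 7.98 at 34 h and 8.09, 8.26 and 8.06 at 40 h, against 9.10, 8.49 and 8.52 at 22 h. Its changes were -0.74 at 34 h, -0.57 at 40 h and -0.61 at 46 h (SE 0.13 each, limma adjusted p = 0.0014, 0.0050 and 0.0025). Snora3, in Rpl27a, had 9.52, 9.72 and 9.78 at 34 h, against 10.53, 10.20 and 10.32 at 22 h. Its change of -0.68 ± 0.09 had an adjusted p of 0.00021, and at 46 h it was -0.53. Snora75, in Ncl, had 7.98, 7.67 and 7.82 at 34 h, against 8.56, 8.35 and 8.43 at 22 h, and its changes were -0.62, -0.58 and -0.33 at 34, 40 and 46 h. The 3 genes had no overlap between the arrays of 34 h and those of 22 h.

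**Figure D2:**
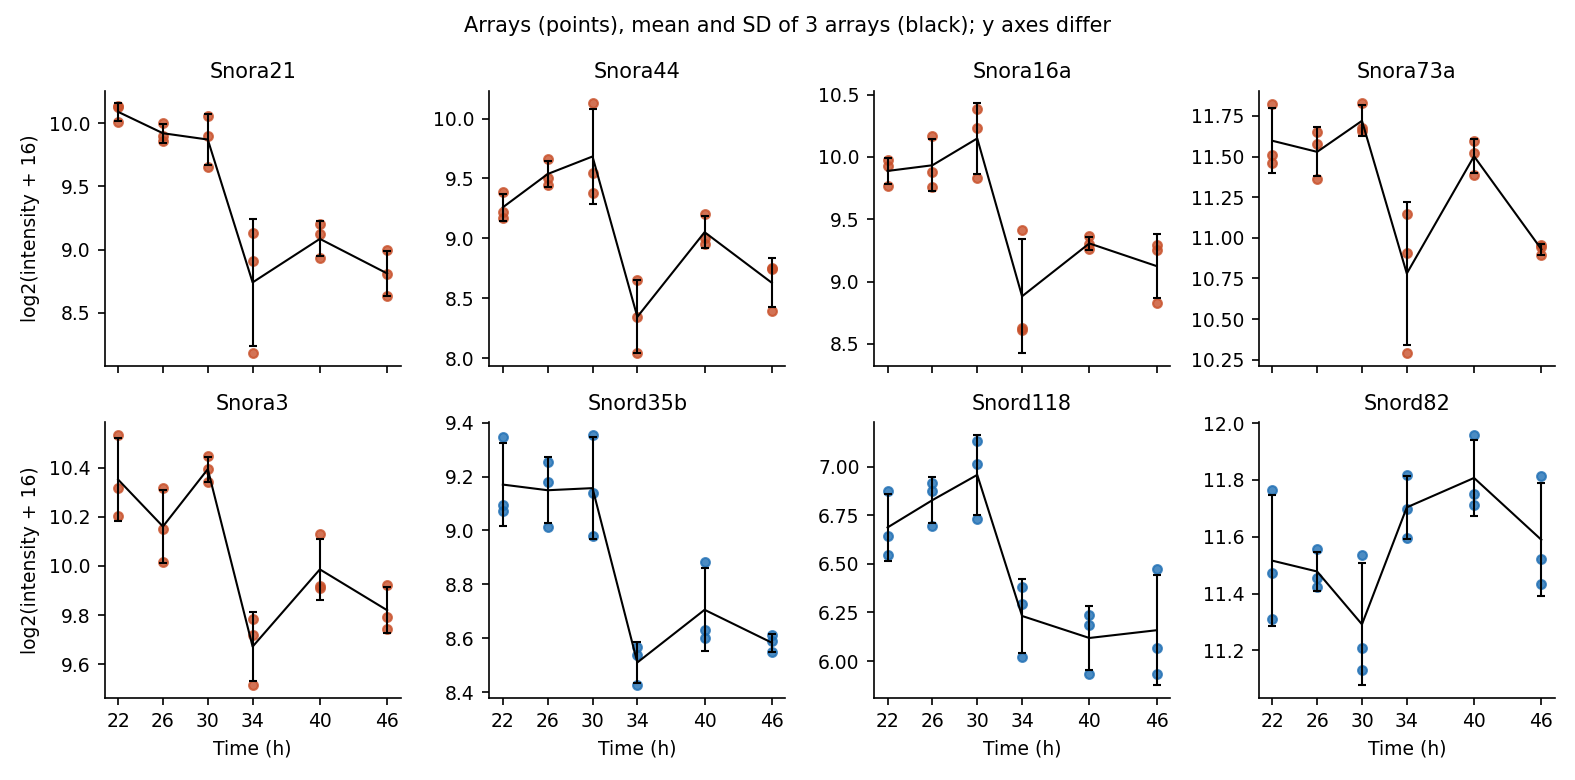
Signal of 8 snoRNA genes on every array (points, log2(intensity + 16)) against time in hours, with the mean and SD of 3 arrays in black; each panel has its own axis. The 6 genes from Snora21 to Snord35b sit lowest at 34 h, Snord118 stays low from 34 h on, and Snord82 has its highest mean, 11.8, at 40 h.

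Among the C/D genes the 4 longer than 100 nucleotides were all called lower at 34 h, where 4.1% of all genes were. The next longest C/D gene, Snord8 at 99 nucleotides, changed by 0.05 (limma adjusted p = 0.68). That all 4 were called thus depends on where the cut lies. Of these 4, Snord118 lost the call in 15 of 29 alternative settings and Snord15a in 6 of 29. Snord22 lost it in 5 of 30 and Snord15b in 0 of 30. Snord118, also known as U8, serves large-subunit rRNA maturation and is not held by another gene. It had 6.02, 6.29 and 6.38 at 34 h and 6.48, 6.07 and 5.93 at 46 h, against 6.88, 6.54 and 6.64 at 22 h. At 40 h it had 5.93, 6.24 and 6.19. Every array of these late times was below every array of 22 h. The changes were -0.46, -0.57 and -0.53 (SE 0.14 each, limma adjusted p = 0.047, 0.0078 and 0.011). Its signal was among the lowest of the members, and its 2 probe sets gave identical values. Snord15b, held like Snord15a by the ribosomal protein gene Rps3, had 7.87, 8.16 and 8.49 at 34 h, against 8.72, 8.98 and 8.73 at 22 h, a change of -0.64 (adjusted p = 0.0063, limma). Snord15a changed by -0.44 at 34 h and by -0.50 at 46 h. Snord22, in Snhg1 and needed for small-subunit rRNA maturation, had changes of -0.53 at 34 h and -0.55 at 46 h.

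Of the 27 shorter C/D genes 6 were lower at 34 h, beside 4.1% of all genes. Snord35b had 8.43, 8.57 and 8.54 at 34 h and 8.61, 8.59 and 8.55 at 46 h, against 9.35, 9.07 and 9.09 at 22 h. Its change of -0.66 ± 0.10 at 34 h (limma adjusted p = 0.00035) was 0.633 of the 22 h level, and neither late time overlapped 22 h. Snord73b, in Rps3a1, had 9.35, 9.01 and 9.13 at 34 h, against 10.17, 9.89 and 9.79 at 22 h, a change of -0.79 ± 0.19 with an adjusted p of 0.012 by limma. Snord73a, in the same gene, had -0.36 and an adjusted p of 0.068. Snord38a was called lower at 40 and 46 h and not at 34 h. It had 5.80, 5.83 and 5.79 at 40 h and 5.86, 5.76 and 5.65 at 46 h, against 6.32, 6.30 and 6.30 at 22 h, and its change was -0.55 at 46 h (limma adjusted p = 0.00078) and -0.27 at 34 h (adjusted p = 0.10).

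Several C/D genes were not lower at the late times. Snord82 had 11.60, 11.70 and 11.82 at 34 h and 11.96, 11.75 and 11.71 at 40 h, against 11.47, 11.77 and 11.31 at 22 h. It differed over the 6 times by the F test (limma adjusted p = 0.049), a call lost in 18 of 31 alternative settings, and no single time differed from 22 h (0.19 at 34 h and 0.29 at 40 h, adjusted p = 0.36 and 0.099). Its arrays of 34 and 22 h overlapped. Snord57, which guides a methylation of small-subunit rRNA, had 12.43, 12.51 and 12.45 at 34 h, against 12.32, 12.54 and 12.34 at 22 h (change 0.06, adjusted p = 0.74 by limma). Snord104 had a change of 0.12 at 34 h and Snord8 of 0.05. Snord14e, another RNA of small-subunit processing, had -0.06.

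Length in RefSeq ran from 45 to 148 nucleotides for Snord genes (median 68) and from 61 to 205 for Snora genes (median 125). Over the 51 genes the Spearman correlation of length with the change at 34 h was -0.43, and with the step from 30 to 34 h it was -0.65. Within the classes the values were weaker, at -0.31 over 31 Snord genes and -0.40 over 20 Snora genes for the step, and -0.17 and -0.23 for the change from 22 h. The points share the same arrays and several share a containing gene, so these are descriptions without a test. Of the 19 Snora genes over 100 nucleotides 14 were lower at 34 h, as was the single shorter one, Snora20. Of all genes 4.1% were lower at that time.

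**Figure D3:**
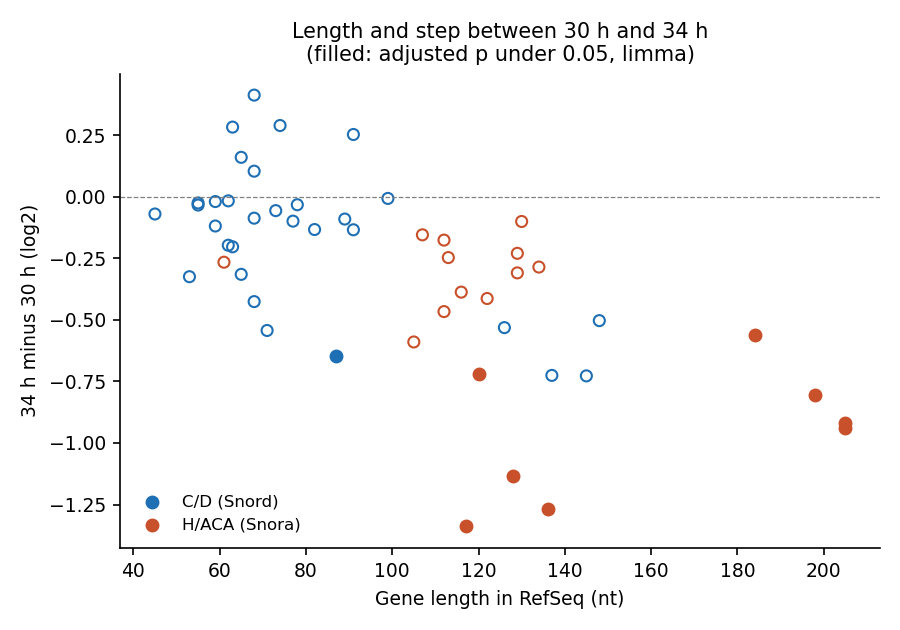
Difference between 34 h and 30 h (log2) against gene length in RefSeq (nucleotides) for 31 C/D and 20 H/ACA genes; filled points were called by limma and open points were not. The 4 C/D genes over 100 nucleotides lie at -0.50 to -0.73, and the 9 filled points lie between -1.34 and -0.56.

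Few of the measured genes that hold the snoRNAs fell with them at 34 h. For 26 snoRNA genes the containing gene was measured, in 22 genes, all of them protein-coding. None of the 7 long noncoding RNA genes was, so Snhg12, Snhg3 and Snhg4, which hold 5 of the 9 genes with the step from 30 to 34 h, are not covered. At 34 h, 12 of the 26 snoRNA genes were lower, against 2 of the 22 containing genes and 4.1% of all genes, and only 1 pair was lower in both partners. The median change was -0.32 for the snoRNA genes and -0.06 for their containing genes. The containing genes were brighter, with a median signal of 11.9 against 8.47 for the 26 snoRNA genes. The highest mean signal of any gene was 13.9. The part of this difference in signal in the smaller changes was not tested. The snoRNA change lay below that of its containing gene in 23 of 26 pairs, in 10 of 13 Snord and in 13 of 13 Snora pairs. Rpl23 had a change of -0.01 at 34 h (limma adjusted p = 0.96) beside -1.35 for Snora21, or -0.68 in the other probe set of Snora21. Rps3 had 0.04 beside -0.44 and -0.64 for Snord15a and Snord15b, and Rps12 had -0.03 beside -0.74 for Snora33. At 46 h 11 of the 26 snoRNA genes and 6 of the 22 containing genes were lower, beside 9.73% of all genes. At an unadjusted p under 0.05, 5 containing genes were lower at 34 h and 9 at 46 h, where 8.94% and 14.3% of all genes were. The difference within pairs was described and not tested, and RefSeq as given here carries no strand for the snoRNA genes. Containing genes were read from their probe set with the highest mean. Whether that probe set lies at the locus that holds the snoRNA was not checked.

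Both containing genes that fell at 34 h encode nucleolar proteins. Ncl, nucleolin, an rRNA-binding protein, changed by -0.27 at 34 h and by -0.36 at 46 h (limma adjusted p = 0.033 and 0.0025). It holds Snora75, which fell, and Snord82, which had 0.19 and 0.07 at those times. Nop56, a core protein of C/D particles, changed by -0.36 at both times (adjusted p = 0.00074 and 0.00022, limma), while Snord57 within it had 0.06 and -0.01. Snord82 with Ncl, Snord57 with Nop56 and Snord61 with Rbmx were the 3 in which the snoRNA gene lay above its containing gene.

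**Figure D4:**
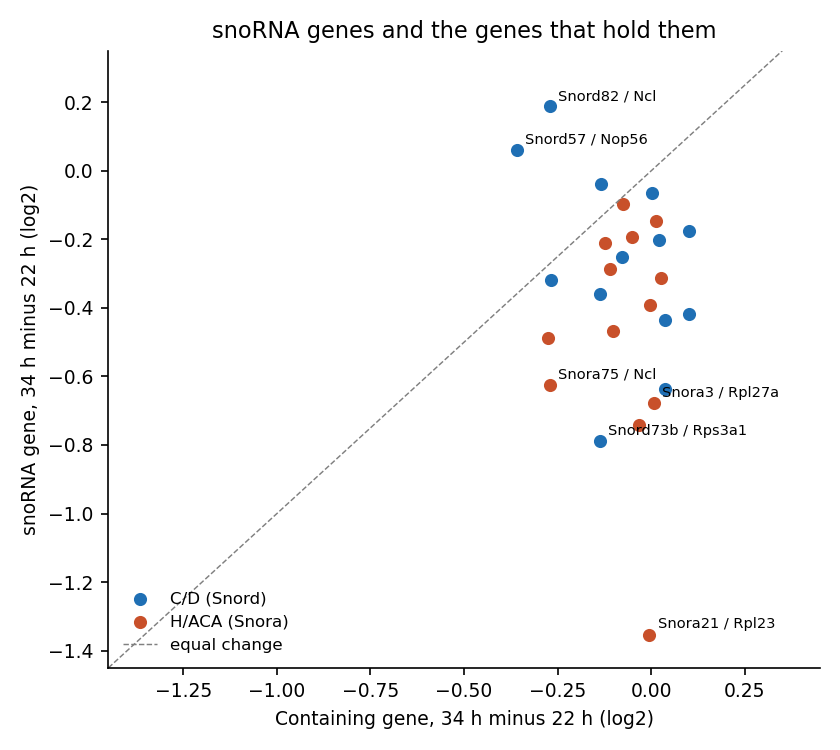
Change from 22 h to 34 h (log2) of 26 snoRNA genes (vertical axis) against that of the gene that holds each (horizontal axis), with C/D in blue and H/ACA in orange; the dashed line marks equal change. The containing genes stay between -0.36 and 0.10, and 23 of the 26 points lie below the line.

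Genes of snoRNA particle proteins also fell, and their median changes were below 0 from 26 h on, with calls only from 30 h on. At 26 h the medians were -0.18 for the C/D and -0.26 for the H/ACA proteins. None of these genes was called lower then, where 1.23% of all genes were. Of 5 C/D core and associated proteins measured, 4 were lower at 46 h (Nop56, Nop58, Rrp9 and Snu13), beside 9.73% of all genes, and Fbl, fibrillarin, had -0.23 (limma adjusted p = 0.18). Their median changes at 30, 34 and 46 h were -0.22, -0.19 and -0.33. Of the 4 H/ACA core proteins Dkc1, dyskerin, and Nhp2 were lower at 30, 34 and 46 h, where 2.23%, 4.1% and 9.73% of all genes were. Dkc1 changed by -0.52 at 30 h, -0.52 at 34 h and -0.64 at 46 h (SE 0.14 each), whereas Gar1 had -0.26 and Nop10 had -0.01 at 46 h, neither called. Of 15 assembly factors 6 were lower at 46 h, and of 42 genes of RNA polymerase I transcription and rRNA processing 22 were, again beside 9.73% of all genes, with median changes of -0.17 and -0.20. The median step from 30 to 34 h was -0.09 for the C/D proteins, against -0.09 for the 31 Snord genes, and for the H/ACA proteins it was -0.02, against -0.44 for the 20 Snora genes.

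Small noncoding RNA genes of other kinds moved at the same time. Of 12 measured, 6 were lower at 34 h and the same number at 46 h, beside 4.1% and 9.73% of all genes. Rnu3a, itself a snoRNA gene, was among the 6 at both times. Rnu5g, of the spliceosome, had 6.68, 5.93 and 7.33 at 34 h, against 8.99, 8.63 and 8.79 at 22 h, a change of -2.16 ± 0.27. Rny1, a Ro-associated RNA, changed by -1.65 ± 0.25, and Vaultrc5, of the vault particle, by -1.16 ± 0.15 (limma adjusted p = 8.2e-05, 0.00040 and 0.00014). Rnu3a, a gene of the U3 snoRNA whose symbol lies outside the pattern used here, had 7.71, 7.98 and 8.28 at 34 h, against 10.60, 8.74 and 8.59 at 22 h, where the first array stood apart. Rnu12, of the minor spliceosome, had 8.79, 8.98 and 8.96 at 34 h, against 10.61, 9.40 and 9.18 at 22 h, with the same array high. Rny3 changed by -0.31. Rmrp and Rpph1 differed over the 6 times by the F test, with -0.58 and -0.22 at 34 h (limma adjusted p = 0.11 and 0.098). Rn7sk, Terc, Rnu6 and Rnu7 were not called, with changes at 34 h between -0.03 and 0.22. Among the 3 small Cajal body RNAs, relatives of snoRNAs that guide modification of spliceosomal RNA, Scarna8 changed by -0.62 at 34 h and Scarna13 rose by 1.34 at 30 h. What these genes share with the snoRNA genes was not tested.

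**Figure D5:**
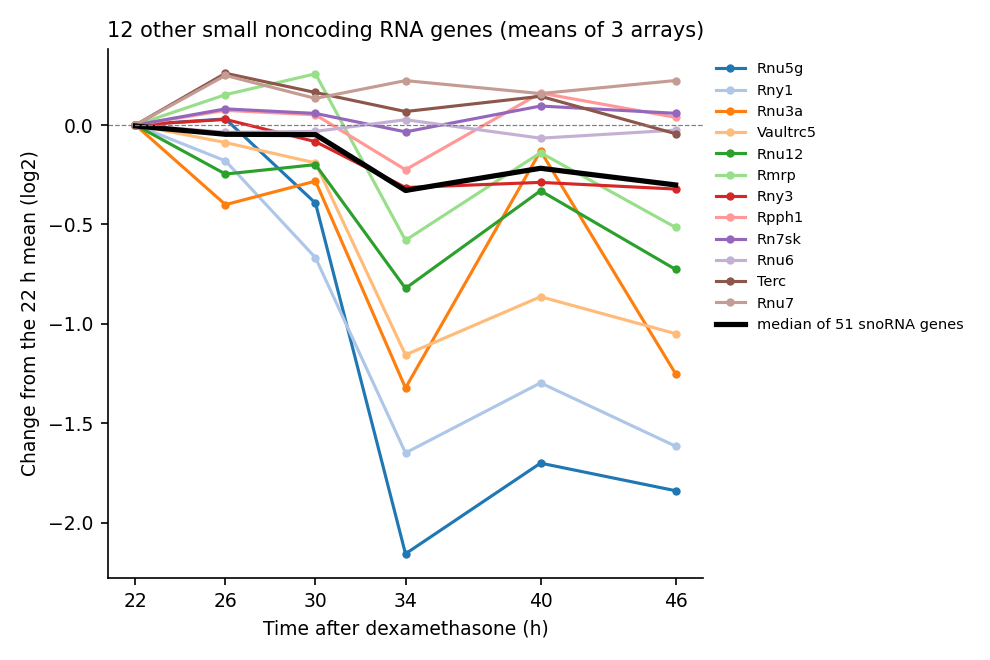
Change from the 22 h mean (log2, means of 3 arrays) against time for 12 other small noncoding RNA genes, with the median of the 51 snoRNA genes in black. Rnu3a, one of the 12, is a gene of the U3 snoRNA. Rnu5g, Rny1, Rnu3a and Vaultrc5 fall beyond -1 at 34 h, and Rn7sk, Terc, Rnu6 and Rnu7 stay within 0.3 of 0.

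A 24 h cosine was called for 2 of the 51 genes, where 0.828% of all genes were. Both, Snord118 and Snora75, had been named in earlier results of these data and are given as a description. Snord118 had an amplitude of 0.44 and Snora75 of 0.30, with fitted peaks at 27.7 and 25.0 h. Their signals at 46 h, which lies 24 h after the first time, were below those at 22 h, with changes of -0.53 and -0.33. Over all members 26 of 51 were lower at 46 h than 24 h before, where 9.73% of all genes were. The cosine call was lost in 20 of 33 alternative settings for Snord118 and in 13 of 34 for Snora75.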

How the data were processed

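Affymetrix arrays were hybridised with labelled cDNA made from total RNA that was extracted with TRIzol and cleaned on a silica spin column, per the labels' protocols, which speak of poly(A)+ RNA and random hexamers. The authors deposited 1 table of intensity values on a linear scale, made with Affymetrix Expression Console 1.1 and PLIER 2.0 per the submitters' processing notes. The genome build of the probes is not given in the sources used here. All 35556 probe sets were taken as log2(intensity + 16) and quantile normalised. Probe sets with 1 gene symbol were kept, with the highest mean probe set per gene, which gave 19938 genes. A further 17 probe sets naming a snoRNA gene beside other symbols were left out. Array number limits the precision, at 3 per time.

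Group means were fitted over all 18 arrays with limma 3.58.1 in R 4.3.3 (lmFit, eBayes), with an F test over times, contrasts against 22 h and 34 h against 30 h, and a 24 h cosine. All p-values were adjusted by Benjamini-Hochberg. The code was tested on simulated data. The members and lists were chosen with earlier results of these data known. Genes were named by size of range, amplitude and change among called members, by signal, or as members of the lists. A containing gene is a RefSeq gene whose span holds the snoRNA gene, on either strand, because no strand was given. This differs from the same-strand rule planned. Replicate numbers did not pair the arrays: deviations of same-numbered arrays correlated between -0.56 and 0.49 (median -0.10), with 15 of 45 over 0.1, and 3 of 18 arrays correlated best with their own number. Alternatives covered scaling, the constant, filters on dim genes, probe choice, variance models, array weights, thresholds, period and leaving out arrays.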

Additional observations from a re-analysis of the deposited data

How the results depend on the processing

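No called change from 22 h, or from 30 to 34 h, of a named gene reversed its sign in any alternative setting. F test ranges and cosine amplitudes are positive by definition, and counts carry no sign, so direction could not be checked for these. With the replicate block, 10 Snord and 14 Snora genes differed over the times, 20, 18 and 26 were lower at 34, 40 and 46 h, 7 were lower at 34 than at 30 h, and 0 had a cosine; the numbers share no known source. Array weights gave 22 Snord genes by the F test, 11 cosine calls, 3 calls at 26 h, 18 at 30 h, and 1, 3 and 1 higher genes at 34, 40 and 46 h. A threshold of 0.01 left 6 Snord genes by the F test, 13, 10 and 14 lower at 34, 40 and 46 h, 2 for the step from 30 to 34 h and 0 cosine calls. A threshold of 0.1 gave 6 cosine calls, 1 call at 30 h and 1 higher gene at 40 h. The cosine count was 5 with median centring, 1 with a constant of 1, with genes at or above the median level and with trend and robust variance, 15 with a period of 26 h, and 0 with a period of 22 h, a linear term in time or no arrays of 34 h. Leaving out each array in turn gave 0 to 4 cosine calls, 0 to 2 calls at 30 h, 13 to 28 lower genes at 34 h, 7 to 22 lower and 0 to 2 higher at 40 h, 14 to 28 lower at 46 h and 2 to 10 lower from 30 to 34 h. The causes were not tested. Of the single-gene results, 2218 values kept their call and 227 lost it. Over all genes the F test called 3957, against 6595 with values as deposited, 6141 with median centring and 10765 with array weights. It called 3220 with the replicate block, 1845 at a threshold of 0.01 and 5662 at 0.1. Without single arrays it called 2631 to 4685. For the other tests the counts over all genes in these settings are not given. Those counts of members cannot be read against the whole array.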
